A study of Rattus norvegicus with 16 samples.

Results

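The genes described here encode the membrane skeleton of the red blood cell and the membrane proteins that anchor it: Sptb, Ank1, Epb42, Epb41, Slc4a1, Gypc, Add2, Rhag and Tmod1. They were found by gene symbol in the count files of whole rat blood, where they make up 9 of the 18031 genes that every file lists. Of these, 8 matched by symbol. Epb41 is listed under its older symbol Epb4.1, and each of the 9 had a single entry with counts in every library.

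All 16 animals belonged to 1 group, adult male Sprague-Dawley rats 85 to 90 days old that received 4 injections of saline (1 ml/kg) spaced 2 h apart and were sacrificed 3 h after the last. Food and water were withheld over that time. No treated group enters these data. Blood was drawn from the heart, frozen at once, depleted of globin mRNA and selected for polyadenylated RNA, and each library, called control 1 to control 16 here, comes from 1 animal. The deposited files carry 6 code letters whose meaning the labels do not state. Code A covers controls 1 to 3, B controls 4, 5, 7, 8 and 10, C controls 6 and 9, D controls 11 to 14, E control 15 and F control 16. The study killed its control animals in separate experiments on different dates, and the labels do not say which library came from which. The sizes of its first experiments, taken in order, equal those of A, of B with C and of D with E and F, so the codes may follow experiments, and they were compared here as unexplained batches.

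As background, the skeleton is a lattice of spectrin under the red cell membrane, in which long spectrin rods meet at short actin filaments. Tropomodulin and adducin cap the ends of those filaments, and protein 4.1 strengthens the spectrin-actin junction and ties it to glycophorin C. A separate anchor runs from beta-spectrin through ankyrin to the anion exchanger band 3, with protein 4.2 bound alongside and the Rh complex, including the Rh-associated glycoprotein, in the same assembly. Defects in several of these proteins cause hereditary spherocytosis or elliptocytosis. In circulating blood the transcripts are known mainly from reticulocytes, the young red cells that still hold RNA, in which GATA1 and KLF1 are the leading transcription factors.

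Promoter sequences were inspected because GATA1 and KLF1 act on many red cell genes. RefSeq promoters (build GRCr8, 250 bases before to 50 bases after the annotated start, written 5′ to 3′ on the gene's strand) were at hand for 7 of the 9 genes. Those of Ank1 and Slc4a1 were not used here. The GATA search took the letters GATA preceded by A or T and followed by A or G, on both strands, and found a match in 5 of the 7 (Add2, Epb42, Gypc, Rhag and Sptb), against 30.3% of the 33469 promoters of this length. The KLF search took CCNCNCCC, where N is any base, on both strands and found a match in 5 of the 7 (Add2, Epb41, Gypc, Sptb and Tmod1), against 46.3% of promoters. Shown are 4 promoters with GATA matches in capitals: Epb42 and Add2, whose levels ran closest together over the libraries, Sptb, the spectrin of the lattice, and Rhag, which followed the others least. Epb42 lies at chr3:128451634-128451933 on the minus strand, Add2 at chr4:120054628-120054927 on the plus strand, Sptb at chr6:101170229-101170528 on the minus strand and Rhag at chr9:27594341-27594640 on the minus strand.
Epb42: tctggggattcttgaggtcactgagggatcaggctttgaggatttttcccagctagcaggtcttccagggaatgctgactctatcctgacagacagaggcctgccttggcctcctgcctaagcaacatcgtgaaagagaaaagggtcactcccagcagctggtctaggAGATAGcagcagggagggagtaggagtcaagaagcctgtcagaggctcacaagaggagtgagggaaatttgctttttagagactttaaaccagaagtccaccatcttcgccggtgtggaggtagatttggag
Add2: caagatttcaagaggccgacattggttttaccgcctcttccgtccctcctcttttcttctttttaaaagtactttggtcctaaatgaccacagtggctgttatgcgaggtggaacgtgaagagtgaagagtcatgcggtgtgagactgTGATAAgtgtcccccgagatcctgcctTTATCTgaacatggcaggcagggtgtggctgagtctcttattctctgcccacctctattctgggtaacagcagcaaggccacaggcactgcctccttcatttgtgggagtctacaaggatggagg
Sptb: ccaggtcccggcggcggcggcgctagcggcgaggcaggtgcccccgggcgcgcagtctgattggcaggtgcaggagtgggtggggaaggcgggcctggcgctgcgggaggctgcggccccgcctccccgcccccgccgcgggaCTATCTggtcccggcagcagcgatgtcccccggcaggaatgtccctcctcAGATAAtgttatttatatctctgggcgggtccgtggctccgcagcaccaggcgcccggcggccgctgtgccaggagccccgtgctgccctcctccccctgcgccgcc
Rhag: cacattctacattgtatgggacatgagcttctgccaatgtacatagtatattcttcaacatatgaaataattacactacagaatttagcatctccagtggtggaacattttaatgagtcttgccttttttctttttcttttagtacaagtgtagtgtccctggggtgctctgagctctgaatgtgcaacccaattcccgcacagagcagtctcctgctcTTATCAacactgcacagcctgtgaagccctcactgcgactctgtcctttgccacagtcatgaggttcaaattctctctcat
The match of Epb42 begins 82 bases before the start, those of Add2 102 and 75 bases before it, those of Sptb 107 and 57 bases before it, and that of Rhag 31 bases before it. In Gypc (not shown) 2 of the 3 matches overlapped by 1 base. Each gene has 1 annotated start in this table, which need not be the start used in red cells, and a match says only that these letters are present. The counts themselves were made on the older build rn5.

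Library totals ran from 21466776 to 31189549 estimated counts, so that 3 counts, taken as the detection floor, correspond to 0.0962 to 0.1398 CPM (counts scaled to a common library total). The 10 globin entries still took between 2.96% and 15.5% of a library. The blood label was checked against fixed marker lists, and all 19 erythroid, 11 platelet and 8 leukocyte markers were detected in every library. In 3 libraries markers of another tissue stood far out, with 5 liver markers summing to 424765 normalized counts in control 2 and 18947 in control 8 (median of all libraries 40.6), and 7 fat and thymus markers summing to 8813 in control 12 (second highest library 383.0). Control 10 had the highest sum of 9 heart muscle markers, 493.5 against 0 to 88.6 in the others, and the lowest sum of platelet markers, 10027 against a median of 73219. Calls between codes and counts of correlations are given below with and without controls 2, 8 and 12, or without control 10. For levels, coefficients of variation and single genes outside the 9 the part of these libraries was not tested. Fewer red cells with RNA and less RNA per cell cannot be told apart in whole blood.

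The 9 genes were all readily measured, and all varied more between libraries than the typical well expressed gene. Their coefficients of variation over the 16 controls ran from 36.4% (Rhag) to 51.8% (Tmod1), against a median of 26.1% over the 4184 genes that averaged 500 or more normalized counts. All 9 lay above that median. These values pool all 6 file codes, and the part of the codes in the spread was not tested. The 19 erythroid markers, which include none of the 9, had a median of 48.7%. Normalized counts are rounded estimated counts divided by library size factors, and they are not scaled for transcript length, so the 9 genes are not ranked against each other.

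Sptb (ENSRNOG00000006911), the beta chain of red cell spectrin, averaged 4882 ± 2524 normalized counts (SD, n = 16). It ran from 1761 in control 15 through a median of 4141 to 9640 in control 4, with control 10 close behind at 9344. Ank1 (ENSRNOG00000018241), the ankyrin that tethers spectrin to band 3, averaged 1560 ± 807 (SD, n = 16) and ran from 606 in control 2 through 1411 to 3316 in control 10. Both genes thus spanned just over 5-fold, but with different libraries at the bottom.

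Slc4a1 (ENSRNOG00000020951), band 3 itself, averaged 58253 ± 29677 normalized counts (SD, n = 16). It ran from 25104 in control 2 through a median of 52728 to 114338 in control 5. Epb42 (ENSRNOG00000011649), protein 4.2 of the band 3 complex, averaged 9817 ± 4973 (SD, n = 16), with 4491 in control 2, a median of 8781 and 21348 in control 10. Control 2 was the lowest library for both of these as well as for Ank1 and Epb41.

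Epb41 (ENSRNOG00000010037), protein 4.1 of the spectrin-actin junction, averaged 15835 ± 7148 normalized counts (SD, n = 16) and ran from 6039 in control 2 through 14126 to 29098 in control 6. Add2 (ENSRNOG00000015903), the beta subunit of adducin, averaged 17956 ± 7810 (SD, n = 16) and ran from 9261 in control 3 through 17517 to 34564 in control 10. Tmod1 (ENSRNOG00000009761), the tropomodulin that caps actin filaments, averaged 3155 ± 1635 (SD, n = 16) and ran from 1581 in control 15 through 3115 to 8084 in control 10. The Tmod1 value of control 10 stood well clear of the second highest, 4284 in control 16.

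Gypc (ENSRNOG00000029939), glycophorin C, averaged 1972 ± 871 normalized counts (SD, n = 16) and ran from 481.3 in control 9 through 2028 to 3640 in control 10. Rhag (ENSRNOG00000050121), the Rh-associated glycoprotein, averaged 977.5 ± 355 (SD, n = 16) and ran from 389.3 in control 9 through 959 to 1535 in control 10. Controls 9 and 16 were the lowest pair in both genes, with 855.5 for Gypc and 601.6 for Rhag in control 16. For Rhag, control 1 was nearly as low at 604.5. Control 16 ranked 2nd for Tmod1 and reached 82223 for Slc4a1, above its median, so control 16 was not low throughout the skeleton genes.

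**Figure D1:**
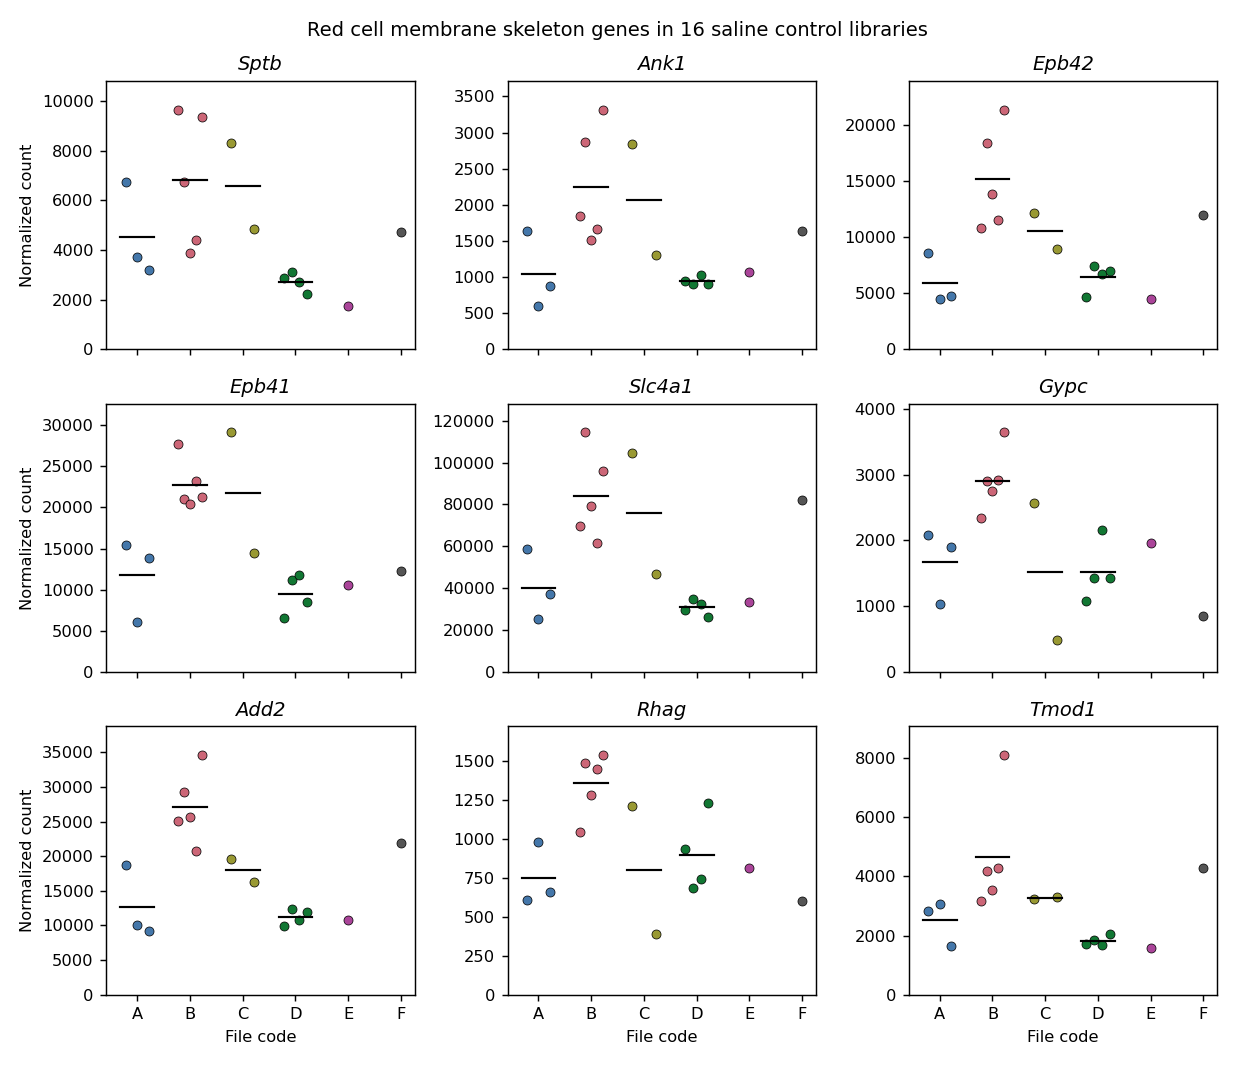
Normalized count (linear axes from 0) of each of the 9 genes in the 16 saline control libraries, grouped by the code letter of the deposited file, with points for libraries and horizontal lines for the mean of codes with at least 2 libraries. Code B points lie above all code D points in 8 panels, Rhag being the exception, and 1 Tmod1 point of code B (8084) stands apart.

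Control 10 had the highest level of Ank1, Epb42, Gypc, Add2, Rhag and Tmod1 and was among the top 4 libraries for all 9 genes. Control 5 was among the top 4 for 8 of them. At the other end, control 11 was among the lowest 4 for 7 genes and control 2 for 6. The order of libraries depends on the scale, however, and in CPM control 10 was highest for Epb42 and Tmod1 alone. As a share of all counts the 9 genes together took 0.432% ± 0.165 (SD, n = 16), from 0.197% in control 2 to 0.801% in control 6, with control 10 at 0.508%. Within the summed counts of the 9 genes Slc4a1 held a share of 49.9% ± 4.46 (SD, n = 16), from 42.9% to 58.5%. Slc4a1 is itself a large part of that sum, which limits how far the share can vary. Its own level had a coefficient of variation of 50.9%.

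Slc4a1, Add2, Tmod1, Epb41 and Epb42 were lower in the libraries of file code D than in those of code B, and none of the 9 genes was called between A and D. The comparison asks whether control animals are alike across file codes. Differences in sequencing and differences between experiments, with their animals and dates, cannot be told apart in it. In edgeR's quasi-likelihood test with Benjamini-Hochberg adjustment, run over 12952 genes and the 12 libraries of codes A, B and D, 5 of the 9 were lower in D than in B at an adjusted p under 0.05, where 2.3% of all genes tested were called. All 9 were lower in D on average, as were 43.8% of all genes. The unadjusted p was under 0.05 for 9 of 9 (11.3% of all genes), and 8 of 9 had ranges that did not overlap between B and D (5.88% of all genes). Ranges here and in the other code comparisons were taken on edgeR's scaled counts. The median log2 fold change of the 9 genes, D minus B, was −1.24, against 0.041 for all genes tested.

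Slc4a1 held 69703, 114338, 79310, 61387 and 95833 normalized counts in controls 4, 5, 7, 8 and 10 of code B. In controls 11 to 14 of code D it held 29390, 34986, 32566 and 26499. On this scale the highest D library was thus far below the lowest B library, and Slc4a1 fell by 1.43 ± 0.28 (SE) on the log2 scale (edgeR adjusted p = 0.030). In CPM the codes overlapped, with 1739 in control 12 of D and 1728 in control 8 of B. Codes E and F were left out of the test, and Slc4a1 held 33368 normalized counts in control 15 and 82223 in control 16.

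Add2 held 25002, 29316, 25698, 20800 and 34564 normalized counts in the B libraries, in the same order. In the D libraries it held 9954, 12404, 10804 and 11954. The D values sat closely together, and the difference was −1.25 ± 0.24 (SE, log2; edgeR adjusted p = 0.030).

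Tmod1 held 3150, 4176, 3528, 4276 and 8084 normalized counts in B. In D it held 1718, 1849, 1683 and 2036. The groups did not overlap, and Tmod1 was lower in D by a log2 difference of −1.33 ± 0.29 (SE; edgeR adjusted p = 0.038). Without control 10 the log2 difference was −1.04 and the adjusted p no longer passed.

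Epb41 held 27693, 21059, 20359, 23239 and 21232 normalized counts in B. In D it held 6614, 11195, 11783 and 8569. These groups too were separate in normalized counts, with a log2 difference of −1.24 ± 0.28 (SE; edgeR adjusted p = 0.045). Epb42 held 10793, 18363, 13887, 11519 and 21348 in B against 4647, 7424, 6686 and 6997 in D, a log2 difference of −1.23 ± 0.28 (SE; edgeR adjusted p = 0.047).

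The remaining 4 genes did not pass. Sptb and Ank1 had log2 differences of −1.30 ± 0.32 (SE; edgeR adjusted p = 0.060) and −1.24 ± 0.32 (SE; edgeR adjusted p = 0.069), as large as those of the genes that passed, and their ranges did not overlap. Gypc differed by −0.91 ± 0.26 (SE, log2; edgeR adjusted p = 0.094). Rhag had the smallest difference, −0.58 ± 0.21 (SE, log2; edgeR adjusted p = 0.25), with 1044 to 1535 normalized counts in B and 685 to 1228 in D. These 4 genes are not shown to respond differently from the other 5, since the differences between genes were not tested.

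The calls depend on single libraries. Leaving out control 5, 7, 10, 11, 12, 13 or 14 left 0 of the 9 called, leaving out control 3 or 8 left 3, leaving out control 2 left 4, control 4 left 6 and control 1 left 7, and leaving out controls 2, 8 and 12 together left 0. The direction held for all 9 genes in each of these fits. DESeq2 called 8 of the 9. With each library scaled by its total count instead, 0 of the 9 passed and the median of all genes moved from 0.041 to 0.53. Relative to that median the 9 genes still differed by between −0.60 (Rhag) and −1.43 (Slc4a1). In CPM only Tmod1 of the 9 kept separate ranges, with 105.4 or more in B and 91.9 or less in D. The erythroid markers moved with the 9 genes, 12 of 19 being lower in D and 0 higher. Their summed level was 1035249 to 2233855 normalized counts in B and 549734 to 784669 in D. Of the platelet (11), leukocyte (8), T cell (7), B cell (6) and myeloid (9) markers 0 were called, where 2.3% of all genes were. The liver markers summed to between 23.7 and 18947 in B and 13.4 to 27.9 in D. Whether the markers' shift and that of the 9 genes have the same source was not tested.

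Between codes A and B 0 of the 9 passed in edgeR, as did 0% of all genes, although all 9 were higher in B (53.2% of all genes were lower) and 8 of 9 had an unadjusted p under 0.05 (13.6% of all genes). DESeq2 called 6 of the 9. Ranges did not overlap for 6 of 9 (6.42% of all genes), and the median log2 fold change, B minus A, was 0.93 against −0.034 for all genes. Epb42 had the largest, 1.33 ± 0.32 (SE; edgeR adjusted p = 0.11), with 8594, 4491 and 4767 normalized counts in controls 1 to 3. Control 1 was higher than controls 2 and 3 in 7 of the 9 genes, Rhag and Tmod1 being the exceptions.

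Between A and D 0 of the 9 passed in edgeR (0% of all genes), 0 had an unadjusted p under 0.05 (5.41% of all genes), and DESeq2 likewise called 0. Of the 9, 7 were lower in D (51.4% of all genes), and the median of the 9 log2 differences, D minus A, was −0.18. Sptb alone had ranges that did not overlap (7.19% of all genes), with 3179 to 6730 normalized counts in A and 2219 to 3098 in D (log2 difference −0.74 ± 0.36, SE; edgeR adjusted p = 0.92). The 3 comparisons share libraries and are not independent of each other.

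**Figure D2:**
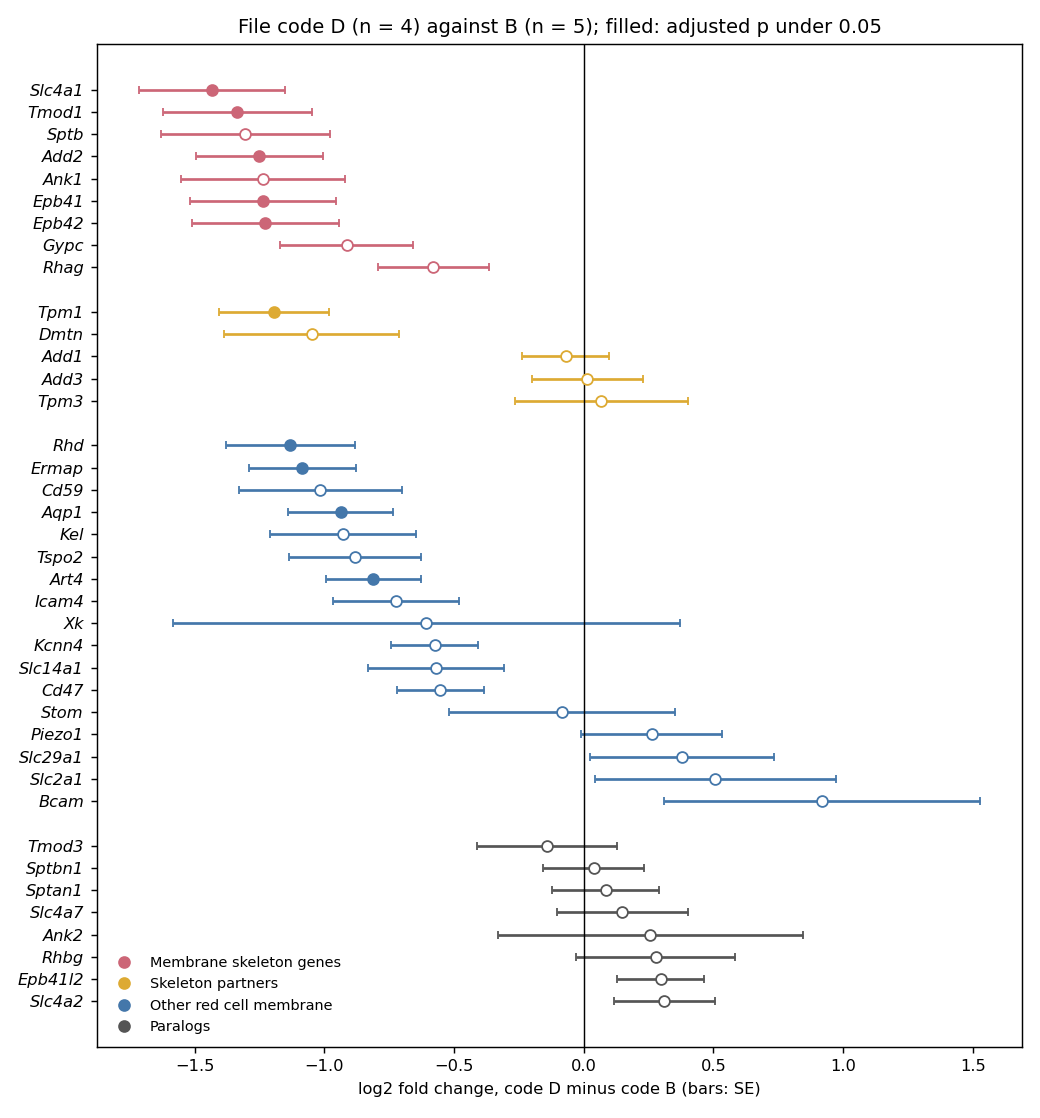
Log2 fold change, code D (n = 4) minus code B (n = 5), with its standard error as bars, for the 9 skeleton genes, 5 partner genes, 17 other red cell membrane genes and 8 paralogs, with filled points for an edgeR adjusted p under 0.05. The skeleton genes lie between −1.43 and −0.58, the paralogs between −0.14 and 0.31.

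Partner genes, whose products assemble with the same skeleton, were mixed. Of 5 partners tested, 1 was lower in D than in B, 0 were higher and 4 did not pass, where 2.3% of all genes were called. Tpm1, a tropomyosin of the short actin filaments, fell by 1.19 ± 0.21 (SE) on the log2 scale (edgeR adjusted p = 0.027). Add1, the alpha-adducin that pairs with Add2 and is made in many tissues, differed by −0.070 ± 0.17 (SE, log2; edgeR adjusted p = 0.99), and Add3, the gamma-adducin, by 0.014 ± 0.21 (SE, log2). Tpm3, a widely expressed tropomyosin, differed by 0.068 ± 0.33 (SE, log2). Dmtn (listed as Epb49), the actin-bundling protein dematin, is outside the rule for named genes and was added after its values were seen. It had a log2 difference of −1.05 ± 0.34 (SE; edgeR adjusted p = 0.16, unadjusted p = 0.0093), and its ranges in B and D did not overlap.

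Among 17 other red cell membrane genes 4 were lower in D than in B, 0 were higher and 13 did not pass, where 2.3% of all genes were called. The 4 were Rhd, an Rh blood group protein that forms a complex with Rhag (log2 difference −1.13 ± 0.25, SE), Ermap, which carries the Scianna antigens (−1.08 ± 0.21), Aqp1, the water channel (−0.94 ± 0.20), and Art4, which carries the Dombrock antigens (−0.81 ± 0.18). Kel, the Kell blood group protein, had a log2 difference of −0.93 ± 0.28 (SE; edgeR adjusted p = 0.13). Stom, stomatin, is also made in other blood cells and differed by −0.084 ± 0.43 (SE, log2).

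Paralogs of the 9 genes, which serve similar roles in other cells, were not called. Of 8 tested, 0 were called in any of the 3 comparisons by edgeR. Of all genes 2.3% were called between B and D and 0% in the other 2 comparisons. At an unadjusted p under 0.05 it was 0 of 8 in each, against 13.6% (A and B), 5.41% (A and D) and 11.3% (B and D) of all genes. With only 8 genes, 0 lies near these shares. Between B and D 7 of the 8 log2 differences were positive, where 43.8% of all genes were negative. Sptbn1, the beta-spectrin of most non-erythroid cells, averaged 2656 ± 460 normalized counts (SD, n = 16), a coefficient of variation of 17.3%, and differed between B and D by 0.038 ± 0.19 (SE, log2). Sptan1, the matching alpha-spectrin, averaged 2982 ± 592 (SD, n = 16) and differed by 0.085 ± 0.21 (SE, log2). Tmod3, the broadly expressed tropomodulin, averaged 1006 ± 294 (SD, n = 16) and differed by −0.14 ± 0.27 (SE, log2). Slc4a2, an anion exchanger of many tissues, averaged 519 ± 104 (SD, n = 16) and differed by 0.31 ± 0.19 (SE, log2). The difference between members and paralogs as groups was not tested.

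Over the 16 animals the levels of the 9 genes were positively correlated. Values were lower for most pairs of Gypc or Rhag with the others, a contrast that for some pairs of Gypc depended on the setting. Pearson correlations of log2 levels were positive for all 36 pairs, from 0.24 (Sptb with Rhag) to 0.96 (Epb42 with Add2), with a median of 0.74. Of these, 20 had an adjusted p under 0.05 in a two-sided permutation test with 100000 permutations, adjusted over the 112770 relations of the 9 genes with all 12531 genes tested, of which 2.69% were called and positive. Spearman's rho, from 0.24 to 0.94, gave 14 pairs. Leaving out the 2 libraries farthest from the median of the first gene gave r from 0.20 to 0.95, with an unadjusted p under 0.05 for 24 pairs, as with all libraries. Without control 10 the count of called pairs was 10, and without controls 2, 8 and 12 it was 15.

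Within file codes the correlations were mostly lower. After centring each gene within codes A to D (14 libraries) r ran from −0.30 to 0.90 with a median of 0.50. Of the 36 pairs 12 had an unadjusted p under 0.05 by an exact test over the 34560 rearrangements within codes, whereas 0 passed adjustment. With so few rearrangements and an adjustment over 112770 relations hardly any pair could pass. The 0 thus does not show that the pairs are unrelated within codes. With scaling by total count r ran from −0.19 to 0.93, and 8 pairs passed.

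Epb42 and Add2 were the closest pair. Their log2 levels had r = 0.96 and rho = 0.94 (permutation p = 1e-05 for each, the smallest that 100000 permutations can give; adjusted p = 0.0020 for r and 0.0040 for rho), r = 0.94 without the 2 farthest libraries and r = 0.90 within codes. The standard deviation of their log2 ratio over the libraries was 0.20. Ank1 and Slc4a1, the ankyrin and its band 3 anchor, followed with r = 0.94 and rho = 0.89 (permutation p = 1e-05 and 4e-05, adjusted p = 0.0020 and 0.0072), r = 0.95 without the 2 farthest libraries, r = 0.90 within codes and a standard deviation of 0.25. Epb41 and Tmod1, both of the actin junction, had r = 0.56 and rho = 0.59 over all libraries (permutation p = 0.025 and 0.018, adjusted p = 0.34 and 0.28), r = 0.63 without the 2 farthest libraries and r = −0.30 within codes.

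The division of Gypc and Rhag from the other 7 genes was noticed in the data and is given as a description. Among those 7, the 21 pairs had r from 0.56 to 0.96 with a median of 0.80, and 19 pairs passed adjustment. Between Gypc or Rhag and the 7, the 14 pairs had r from 0.24 to 0.61 with a median of 0.44, rho from 0.24 to 0.73, and 0 passed. The contrast was weaker for some pairs of Gypc under other settings. Within codes the r of Gypc was 0.71 with Ank1, 0.77 with Epb41 and 0.76 with Slc4a1. It was 0.55 with Epb42, 0.40 with Add2, 0.37 with Sptb and 0.047 with Tmod1. Pairs among the 7 ran from −0.30 to 0.90 within codes. Without its 2 farthest libraries, controls 9 and 16, Gypc had r = 0.82 with Add2 (permutation p = 0.00034) and 0.67 with Tmod1 (permutation p = 0.0094). With Sptb, Ank1, Epb42, Epb41 and Slc4a1 the 2 libraries left out were instead those farthest for that other gene. There r ran from 0.25 (Epb42) to 0.53 (Epb41), and Gypc without controls 9 and 16 was not compared with those genes. For Rhag with the 7, r within codes ran from −0.057 to 0.30. Gypc and Rhag had r = 0.74 and rho = 0.75 with each other (permutation p = 0.0011 and 0.0013, adjusted p = 0.043 and 0.058). That relation leaned on few libraries, since without controls 9 and 16 r was 0.49 (permutation p = 0.078), and within codes it was 0.51. Differences between correlations were not tested.

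**Figure D3:**
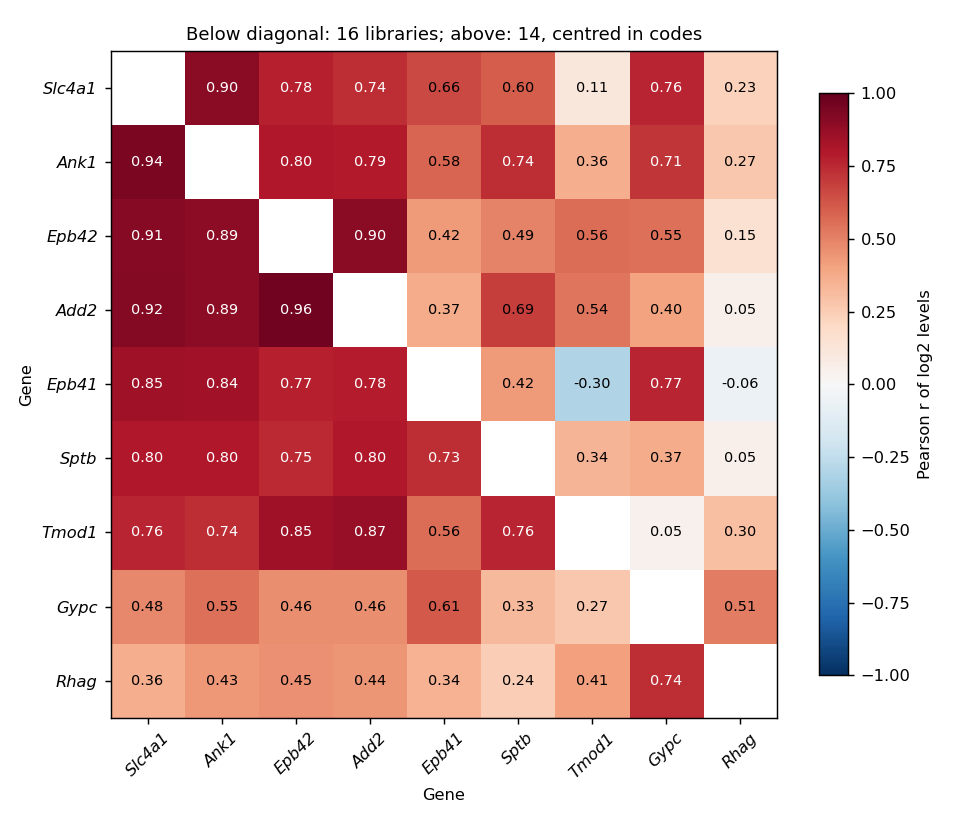
Pearson r of log2 levels for every pair of the 9 genes (color scale from −1 to 1), below the diagonal over 16 libraries and above it over 14 libraries after centring within file codes. The block of Slc4a1, Ank1, Epb42 and Add2 holds r from 0.89 to 0.96 below the diagonal, and the Gypc and Rhag rows are paler there.

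Levels of the 9 genes followed those of other erythroid genes, and no relation with other blood cell markers passed the test. The mean log2 level of the 19 erythroid markers (heme synthesis, red cell transcription factors and others, with no globin and none of the 9) correlated positively with 8 of the 9 at an adjusted p under 0.05, where 6.93% of the 12531 genes did so. Add2 and Epb42 came highest, each with r = 0.88 (permutation p = 1e-05, the smallest that can be given; adjusted p = 0.00082) and with rho = 0.84 and 0.81. Sptb was lowest with r = 0.67 and rho = 0.72 (permutation p = 0.0045 and 0.0021), and its adjusted p was 0.062 for r and 0.047 for rho. For Rhag, r was 0.69 (adjusted p = 0.041) and rho 0.60 (adjusted p = 0.19). Controls 5 and 10 were farthest from the median in the erythroid level, and without them r ran from 0.54 to 0.81 with an unadjusted permutation p under 0.05 for all 9. Within codes r ran from 0.29 (Epb41) to 0.80 (Epb42), with an unadjusted p under 0.05 for 6 of 9 by the exact test and 0 after adjustment. Scaling by total count left 4 of the 9, leaving out control 10 left 6, and leaving out controls 2, 8 and 12 also left 6, with r from 0.68 to 0.90.

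The mean log2 levels of the platelet, leukocyte, T cell, B cell and myeloid lists correlated with 0 of the 9 at an adjusted p under 0.05, where 3.62%, 29.1%, 8.84%, 2.12% and 25.9% of all genes did. For the heart muscle list, the globin share and the total count it was likewise 0 of the 9, against 0%, 0.0239% and 0% of all genes. Among all of these relations 1 had an unadjusted p under 0.05, that of Sptb with the myeloid list (r = −0.51, rho = −0.49, permutation p = 0.045 and 0.057, adjusted p for r = 0.12). The r of the 9 genes with the globin share ran from −0.39 to 0.39.

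**Figure D4:**
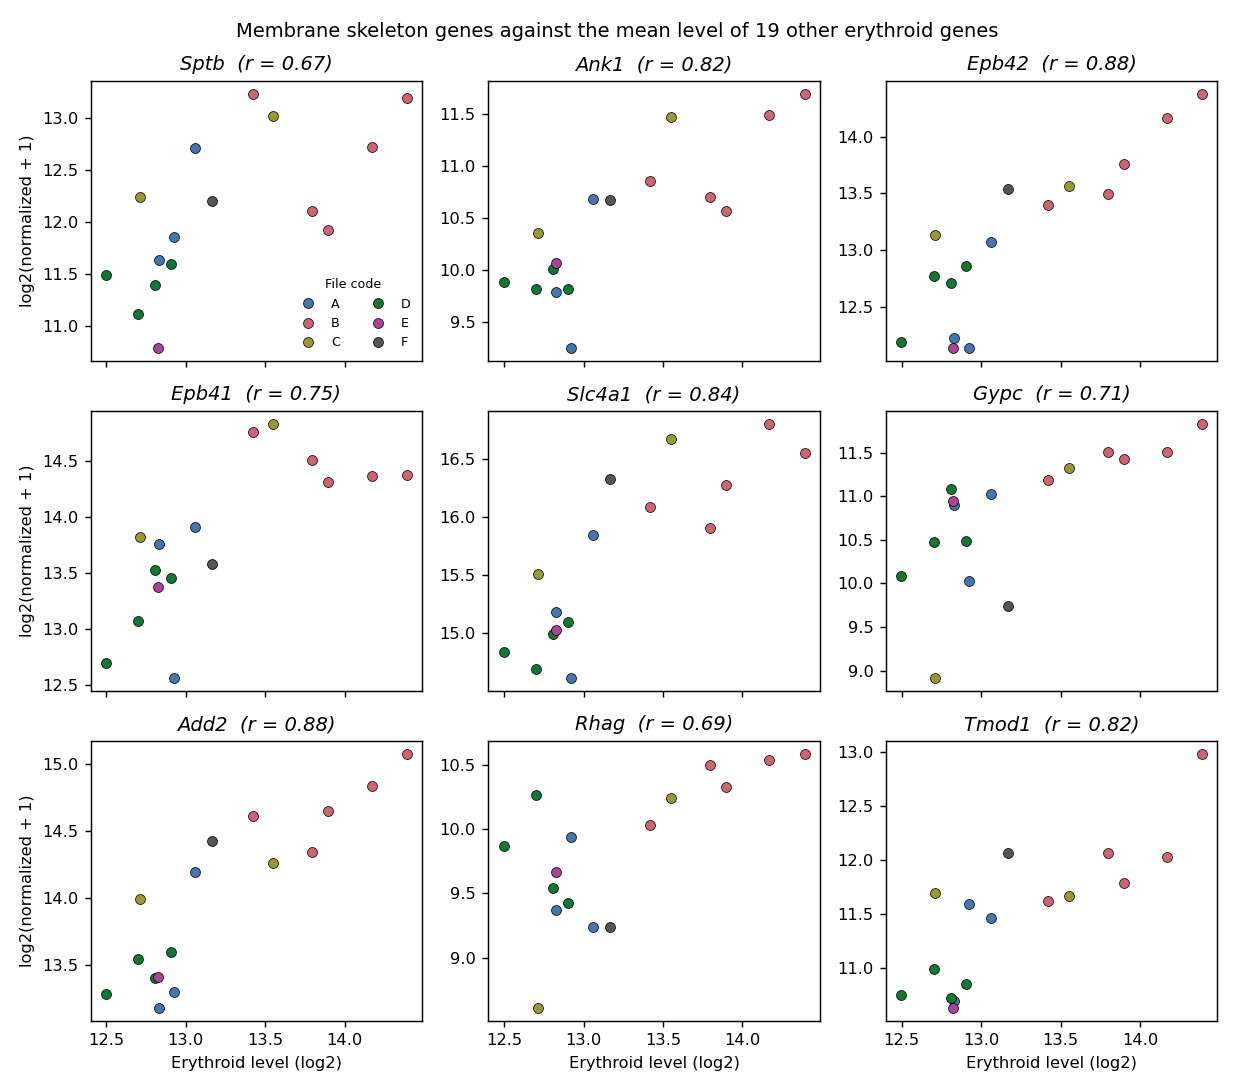
Log2(normalized count + 1) of each of the 9 genes against the mean log2 level of 19 other erythroid genes, with points for the 16 libraries colored by file code and the Pearson r in each title. Values of r run from 0.67 to 0.88, with code B at the upper right and code D at the lower left, and the lowest point of Gypc and Rhag is control 9.

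Each gene was also set beside all other genes with a symbol and a mean of at least 50 normalized counts, by Pearson r over the 16 libraries, as a description. Epb42 was most like Cmpk2 (r = 0.98), Nos1ap (0.97) and Cdc25b (0.97), and Add2 most like Fhdc1 (0.97), Cmpk2 (0.97) and Bsdc1 (0.97), so that both share Cmpk2, a mitochondrial nucleotide kinase. Slc4a1 was closest to Fam117a (r = 0.97), Ube2o (0.96), a ubiquitin ligase that acts in the remodelling of reticulocyte proteins, and Irak1 (0.96). Ank1 was closest to Irak1 (r = 0.95), an interleukin receptor kinase, Gtlf3b (0.95) and Sidt2 (0.94). Tmod1 was closest to Chmp4bl1 (r = 0.97), Riok3 (0.97), a kinase involved in red cell maturation, and Zfand2b (0.97). The best placed other skeleton gene ranked between 4 (Ank1, Epb41 and Add2) and 145 (Tmod1) among the 12530 other genes, so for each of the 9 at least 3 genes outside the set ran closer.

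Gypc was closest to Ppox (r = 0.96), an enzyme of heme synthesis, Kel (0.96) and Slc43a1 (0.95), an amino acid transporter. Kel repeated the low values of Gypc, with 6934 normalized counts in control 9 and 10004 in control 16 against a median of 27567. Xpo7, an exportin used in red cell maturation and named here after its values were seen, was also lowest in those libraries, at 1515 and 1117 against a median of 7327. Sptb was closest to Sfxn3 (r = 0.92), Nbr1 (0.91) and Eif2c2 (0.91), and Epb41 to Spag5 (0.87), Ranbp10 (0.86) and Gtlf3b (0.86). For Rhag the closest were 6030468B19Rik (r = 0.86) and the 2 entries of Apol2 (0.85 each), whose values were identical in every library and are therefore uncertain. Rhag and Epb41 thus had no gene closer than 0.86 and 0.87 among those compared.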

How the data were processed

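Whole blood of 16 saline control rats was sequenced. The authors trimmed reads, aligned them with Bowtie 0.12.9 to Ensembl transcripts (rat build rn5) and deposited unnormalized estimated counts from RSEM 1.2.0. Their replacement of outliers was not applied. Estimated counts were rounded here, since 19.3% to 27.1% of each library's values had a fractional part. The lists of genes differ between files, and the 18031 genes in every file were used. Every 2 libraries differed beyond sampling noise (lowest chi-square per degree of freedom 48.0). The detection floor covers counting error only, whereas each SD and SE includes the spread between animals.

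Libraries of file codes with at least 3 libraries were compared with edgeR 4.0.16 (R 4.3.3; TMM scaling, filterByExpr, quasi-likelihood F-test, Benjamini-Hochberg adjustment over all genes tested). DESeq2 1.42.0 was an alternative and gave the size factors for normalized counts. Correlations used log2(normalized count + 1) with 100000 two-sided permutations over genes with a mean of at least 10, in Python 3.11.15 with numpy 2.4.6, scipy 1.17.1 and pandas 2.3.3. The edgeR fit and the permutation test of correlations were tried on simulated data. Further alternatives were other scalings, a pseudocount of 10, no filter and leaving out libraries; the one without control 10 for correlations and the one without controls 2, 8 and 12 for code comparisons were chosen after seeing the data.

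The 9 genes and all lists were chosen with earlier results of these data known. Named were the 9 genes, every called partner, other membrane gene and paralog with the 4 most abundant of each list, and the 3 genes most like each of the 9. Of the lists, 5 of 6 partners, 17 of 19 other membrane genes and 14 of 15 paralogs were listed in every file, of which 8 paralogs passed the filter. A further partner gene is not reported here.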

Additional observations from a re-analysis of the deposited data

Results flagged for a closer look

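Tmod1 in control 10 lay far from the other libraries of file code B, at 8084.4 normalized counts against 4276.2 in the nearest, a gap of 0.772 of the range of the 5 libraries. In all, 18 such comparisons were made, of which about 0.9 would stand out by chance. By normalized count control 10 also had the highest level of 5 other skeleton genes. It had the highest sums of erythroid markers (2233855 normalized counts) and heart muscle markers (493.5) as well. In CPM it was highest for Tmod1 and Epb42 alone among the skeleton genes, with Rhag at 39.2 against 52.7 in control 6. Tmod1 is also made in heart muscle, and the part of the heart markers in this value was not tested.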

How the results depend on the processing

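No paired analysis was possible because the labels give 1 group. Between codes B and D the 298 genes called became 742 with DESeq2, 6 with total count scaling, 11 without controls 2, 8 and 12 and 2 to 7.0e+02 when 1 library was left out. The 5 skeleton genes called became 8 with DESeq2, 0 with total count scaling, 3 without the filter on low counts, 0 without controls 2, 8 and 12 and 0 to 7 with 1 library left out. Between A and B the 0 genes called in edgeR (1755 at an unadjusted p under 0.05) became 563 with DESeq2, 1 without controls 2, 8 and 12 and 0 to 506 with 1 library left out, and the 0 skeleton genes became 6 with DESeq2 and 0 to 1. Between A and D the 0 genes called in edgeR (5.41% of genes at an unadjusted p under 0.05) became 14 with DESeq2 and 0 to 2. With 1 library left out the A to D log2 difference changed sign for Ank1 (−0.43 to 0.34), Gypc (−0.40 to 0.053), Add2 (−0.35 to 0.22) and Epb42 (−0.070 to 0.47), and for Epb42 also without controls 2, 8 and 12 (−0.13). In all, 480 of 486 log2 differences under alternatives kept their direction. The 20 pairs called became 0 within codes, 8 with total count scaling and 10 without control 10. The 8 genes correlated with the erythroid level became 0 within codes and 4 with total count scaling. For pairs, the exact test within codes has 34560 rearrangements adjusted over 112770 relations, so hardly any pair could pass. There Epb42 with Add2 had r = 0.90 and an adjusted p of 0.73 by that test. The 0 pairs are therefore not shown to be a loss of correlation. The causes were not tested. Depth limited none of the 9 genes, since the lowest value of any was 389.3 normalized counts.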

Other observations

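Of the 17 other red cell membrane genes, 7 (Rhd, Kel, Icam4, Aqp1, Slc14a1, Tspo2 and Art4) were highest by normalized count in control 10, as were 6 of the 9 skeleton genes. In CPM, of the skeleton genes, Epb42 and Tmod1 alone were highest there. Xk, Stom and the partner gene Tpm3 were instead lowest there, and these genes were named after their values were seen. Xk, the Kx protein that pairs with Kell in the red cell membrane, ran from 20.2 normalized counts in control 10 through a median of 53.8 to 410.8 in control 2 and 374.0 in control 16, a coefficient of variation of 103%. Stom held 5463 in control 10 and was highest in control 8 (26031), as was Tpm3 (5552 and 19544). Control 8 had the highest sum of myeloid markers, 1077414 normalized counts against a median of 209724.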
